A study of Mus musculus with 3 samples.

Results

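The 4 mouse Hox clusters and the sequence around them were described in a list of potential open-chromatin intervals from mouse embryonic stem cells. An interval was taken as a member when its midpoint lay in one of 4 windows of 500 kb on mouse build mm9: 51900001 to 52400000 of chromosome 6 (HoxA), 95900001 to 96400000 of chromosome 11 (HoxB), 102600001 to 103100000 of chromosome 15 (HoxC) or 74300001 to 74800000 of chromosome 2 (HoxD). By this rule 711 of the 348759 intervals of the list were members, with 210 in HoxA, 219 in HoxB, 203 in HoxC and 79 in HoxD. The series holds 3 samples of wild type stem cells of the background 129Sv-C57Bl/6: input genomic DNA, FAIRE DNA from cells given DMSO for 16 h, and FAIRE DNA from cells given the topoisomerase II inhibitor ICRF-193 at 500 nM for 16 h. FAIRE enriches DNA that crosslinks poorly to protein, as at nucleosome-depleted promoters and enhancers. Both FAIRE titles cover replicates 1 and 2, and the list names no sample, so it was read as 1 pooled list: nothing here compares DMSO with ICRF-193, there are no replicates and no test, and the read depth is unknown. The score of an interval is the authors' own value on an unstated scale, and it was used only within the list. The list holds no expression values, so the labelled cell type could not be checked against markers.

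Hox genes encode homeodomain transcription factors that set the identity of body segments along the head-to-tail axis. Within a cluster, the order of the genes on the chromosome follows the order in which they are switched on along that axis. In embryonic stem cells most Hox genes are silent and are a classic target of Polycomb repression, at promoters that also carry an activating histone mark. HoxD is known for the gene deserts on both sides, which hold enhancers for limb expression.

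In the RefSeq table of build GRCm38.p6, used for names and order only, the clusters hold 39 Hox genes: 11 in HoxA, 10 in HoxB, 9 in HoxC and 9 in HoxD. HoxA has Skap2, an adaptor protein gene, on the lower side and Evx1, another homeobox gene, on the upper side, next to Hoxa13. HoxB begins with Hoxb13, next to Ttll6 and Calcoco2, and ends with Hoxb1, next to Skap1. HoxC runs from Hoxc13, next to Calcoco1, to Hoxc4, next to Smug1 (a DNA repair glycosylase) and Cbx5 (heterochromatin protein HP1 alpha). HoxD runs from Hoxd13, next to Evx2 and Lnpk, to Hoxd1, next to Mtx2. The microRNA genes Mir196b (HoxA), Mir196a-1 and Mir10a (HoxB), Mir196a-2 and Mir615 (HoxC) and Mir10b (HoxD) lie inside the clusters. An mm9 annotation was not used here, so no interval was assigned to a gene, and the extent of each cluster within its window was not measured.

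Hox promoters are shown to give the kind of sequence these windows hold. The members of paralogue group 4 were taken because this group occurs in each cluster, and the table of promoters gave Hoxb4, Hoxc4 and Hoxd4. Hoxa4 had no entry. The 250 bases before the start are printed from RefSeq, GRCm38.p6, 5′ to 3′ on the plus strand, with CG dinucleotides in capitals (the same on both strands). They come from chr11:96318017-96318266 (Hoxb4), chr15:103034145-103034394 (Hoxc4) and chr2:74721728-74721977 (Hoxd4). These positions belong to another build than the intervals and cannot be set beside them.
Hoxb4 promoter: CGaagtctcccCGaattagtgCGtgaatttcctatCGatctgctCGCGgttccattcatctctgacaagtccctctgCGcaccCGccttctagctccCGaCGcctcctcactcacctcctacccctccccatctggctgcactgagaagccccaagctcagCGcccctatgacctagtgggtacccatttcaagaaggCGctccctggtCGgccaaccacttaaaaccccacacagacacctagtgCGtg
Hoxc4 promoter: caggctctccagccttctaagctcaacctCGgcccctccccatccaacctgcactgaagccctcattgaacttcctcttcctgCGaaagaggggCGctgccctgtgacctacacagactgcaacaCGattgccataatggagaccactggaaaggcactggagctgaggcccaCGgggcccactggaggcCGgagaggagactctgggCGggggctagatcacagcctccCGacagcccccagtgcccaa
Hoxd4 promoter: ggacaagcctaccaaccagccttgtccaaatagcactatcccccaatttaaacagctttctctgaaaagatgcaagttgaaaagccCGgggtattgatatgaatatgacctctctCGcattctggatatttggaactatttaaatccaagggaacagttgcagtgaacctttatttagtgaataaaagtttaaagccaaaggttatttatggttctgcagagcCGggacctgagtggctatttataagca

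The 3 promoters hold 14, 8 and 3 CG dinucleotides in these 250 bases, in the order printed, and their GC content is 58.0%, 62.0% and 40.4%. Promoter windows of 300 bases, from 250 before to 50 after the start, were listed for 22 of the 39 Hox genes, as 24 promoters. HoxA and HoxD gave 10 promoters each, HoxB 3 and HoxC 1, so the pooled values describe mainly HoxA and HoxD. At least 1 CG was found in 24 of these 24, against 94.6% of all 32851 promoters. Their median was 14.5 CG per promoter, against 7 among all promoters, and 17 of the 24 held at least 10, against 43.5% of all promoters. Hoxa13, the last gene of HoxA, had 45, and Hoxd13 had 37. Hoxa9, Hoxd4 and 1 of the 2 listed promoters of Hoxd11 had 4 each. The listed Hox promoters thus ranged from CpG-poor to CpG-rich, and whether an interval of the list lies on any of them was not determined.

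HoxA, HoxB and HoxC were rich in intervals and resembled each other, whereas HoxD held fewer. The exact 95% Poisson intervals, which cover counting error only and treat clustered intervals as independent, were 183 to 240.4 for HoxA, 191 to 250 for HoxB and 176 to 233 for HoxC. These overlap widely. That of HoxD, 62.6 to 98.5, lies below all of them. The median of 4797 other autosomal windows of 500 kb was 40 intervals, and the central 80% of them ranged from 6 to 182. HoxA had 5.25 times this median, HoxB 5.47 times, HoxC 5.08 times and HoxD 1.98 times. With intervals within 500 bp of each other joined into regions, these ratios were 3.77, 4.41, 4.14 and 1.91, in the same order. Fewer intervals than in HoxA were found in 93.1% of the other windows, and the corresponding shares were 93.9% for HoxB, 92.5% for HoxC and 68.1% for HoxD. HoxD was therefore above the middle of the genome in number, not below it.

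**Figure D1:**
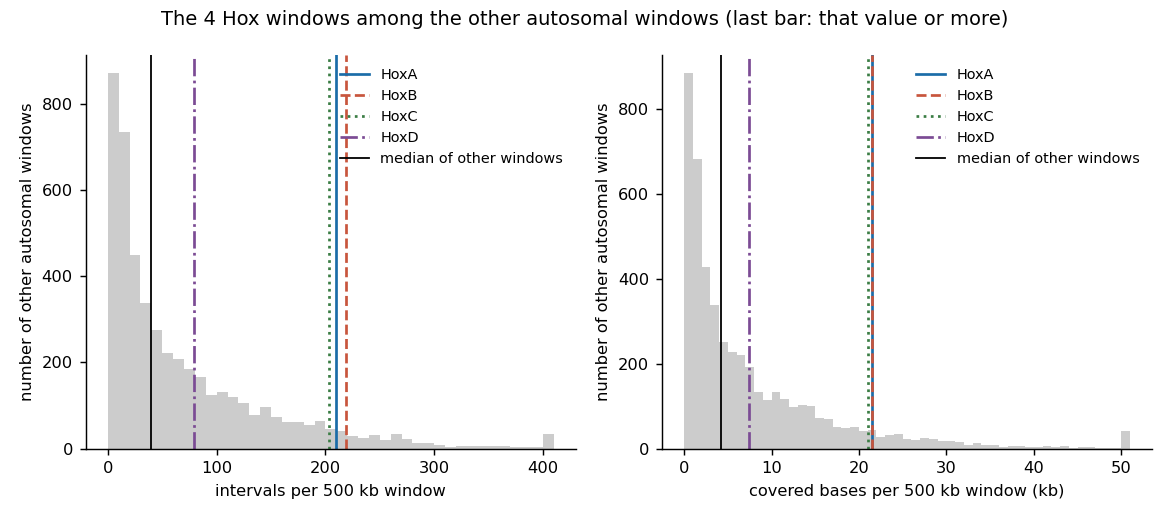
Number of intervals (left) and covered bases in kb (right) per 500 kb window. Grey bars count the 4797 other autosomal windows, with values past the axis in the last bar, the black line is their median (40 intervals, 4256 bases), and the coloured lines are the Hox windows: HoxA, HoxB and HoxC lie together near 210 intervals and 21 kb, and HoxD at 79 intervals and 7.44 kb.

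Covered sequence gave the same order. Intervals covered 21489 bases of the HoxA window, 21518 of HoxB, 20989 of HoxC and 7437 of HoxD, or 4.30%, 4.30%, 4.20% and 1.49% of the 500 kb. The median of the other windows was 4256 bases. HoxA, HoxB and HoxC were higher than 91.5%, 91.5% and 91.0% of the other windows in covered bases, and HoxD higher than 65.2%. Each Hox window had fewer 10 kb bins without an interval than the median other window. This count depends on the number of intervals and does not show that they were evenly spread. Of the 50 bins of 10 kb in a window, 12 in HoxA, 8 in HoxB and 12 in HoxC were without an interval, against a median of 34 in other windows. In HoxD 26 bins were without one.

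The 4 windows sat differently in their surroundings. HoxA had more intervals than each of the 8 windows of 500 kb within 4 steps on either side, which held 43 to 142. HoxB lay in a dense part of chromosome 11, where its 8 neighbours held 133 to 411 intervals and only 3 of them had fewer than HoxB. Against the windows of chromosome 11 alone HoxB was 3.0 times the median. For HoxC, near the end of chromosome 15, only the 4 neighbours on the lower side were whole. They held 63 to 312, and 2 had fewer. Against chromosome 15 alone HoxC was 8.64 times the median. HoxD had more intervals than 3 of its 8 neighbours, which ranged from 39 to 266, and more than both windows that adjoin it (57 on the lower side, 39 on the upper).

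The intervals of the Hox windows were narrow and of low score, much like the rest of the list. The median width was 29 bp in HoxA, 28 bp in HoxB, 37 bp in HoxC and 52 bp in HoxD, against 41 bp over all 344785 autosomal intervals. Of the other windows with any interval, 77.8%, 79.9%, 63.2% and 41.2% had a larger median width, in the same order. A higher median score was found in 84.0%, 72.6%, 66.5% and 57.8% of them. Widths of at least 200 bp were found for 38 of 210 intervals in HoxA (18.1%, exact 95% binomial interval 13.1 to 24.0), 45 of 219 in HoxB (20.5%, 15.4 to 26.5), 33 of 203 in HoxC (16.3%, 11.5 to 22.1) and 17 of 79 in HoxD (21.5%, 13.1 to 32.2). The share among all autosomal intervals was 20%, which lies inside each interval. Slivers of at most 10 bp made up 37.6% of HoxA (31.1 to 44.5), 37.0% of HoxB (30.6 to 43.8), 32.0% of HoxC (25.7 to 38.9) and 31.6% of HoxD (21.6 to 43.1), against 30.9% of all autosomal intervals. HoxA was the only window of the 4 whose binomial interval did not reach that share, by a narrow margin.

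**Figure D2:**
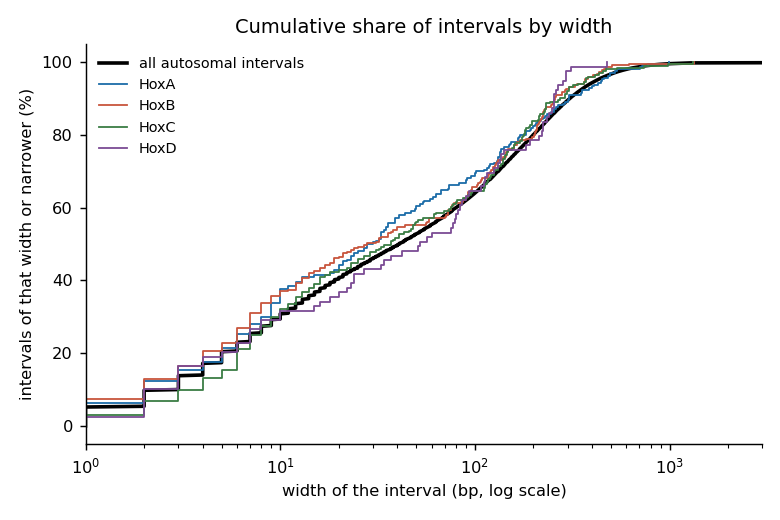
Cumulative share of intervals (%) by width in bp on a log axis, for the 4 Hox windows (colours) and all autosomal intervals (black). The coloured curves run close to the black one, with HoxA and HoxB above it at 10 bp, and the widest HoxD interval is 476 bp.

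By single intervals, the share of high scores in the Hox windows was near that of the list. The top 10% of autosomal intervals by score, those at or above 0.0236, hold 10.0% of the list by construction. They included 17 intervals in HoxA (8.10%, exact 95% binomial interval 4.79 to 12.6), 23 in HoxB (10.5%, 6.78 to 15.3), 18 in HoxC (8.87%, 5.34 to 13.7) and 6 in HoxD (7.59%, 2.84 to 15.8). Each interval includes 10.0%. Scores within 10% of the lowest in the list were held by 134 intervals in HoxA (63.8%), 131 in HoxB (59.8%), 129 in HoxC (63.5%) and 46 in HoxD (58.2%), against 58.5% of all autosomal intervals. The highest score of a window was lowest in HoxD. It was 6.44 times the lowest score of the list in HoxB, 5.28 times in HoxC, 4.22 times in HoxA and 2.25 times in HoxD. Of the other windows with any interval, 73.4% had a higher top score than HoxD, although 68.1% of all other windows had fewer intervals. Among intervals of at least 200 bp, 0 of the 17 in HoxD reached the top 10% of that class, which allows a share of up to 17.6% by 3 counts and 19.5% by the exact upper limit. After joining intervals within 500 bp, 0 of the 42 regions of HoxD were in the top 10% of joined regions, which allows up to 7.14% by 3 counts and 8.41% by the exact upper limit. Both limits for joined regions are under 10.0%, but they cover counting error only and treat neighbouring regions as independent. The binomial intervals for single HoxD intervals and for those of at least 200 bp include 10.0%. A joined region keeps the highest score of its intervals, and those of HoxD held 1.88 intervals on average, against 2.17 over the autosomes. Whether HoxD has a lower share of high scores than the list therefore cannot be decided here. The joined regions of HoxA (8.43%), HoxB (9.28%) and HoxC (8.79%) had exact intervals that include 10.0%.

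Each window was divided by position into its middle 200 kb and a flank of 150 kb on either side. In number of intervals, the middle parts of the 4 windows differed less than the flanks did. The middle held 93 intervals in HoxA, 79 in HoxB, 77 in HoxC and 64 in HoxD, a span of 1.45 times from lowest to highest. As densities these are 46.5 per 100 kb in HoxA (exact 95% Poisson interval 37.5 to 57.0), 39.5 in HoxB (31.3 to 49.2), 38.5 in HoxC (30.4 to 48.1) and 32.0 in HoxD (24.6 to 40.9), and each of these intervals overlaps the other 3. Such overlap does not show that the densities were equal, and it depended on the width of the middle. With a middle of 300 kb the densities were 47.0, 39.0, 32.0 and 24.3 per 100 kb, in the same order, and the interval of HoxD (19.1 to 30.6) lay below those of HoxA (39.6 to 55.4) and HoxB (32.2 to 46.7). In covered bases the middle of 200 kb also differed more, with 10047 in HoxA, 8510 in HoxB, 5495 in HoxC and 4832 in HoxD. The lower flanks held 90, 111, 13 and 7 intervals in HoxA, HoxB, HoxC and HoxD, a span of 15.9 times. The upper flanks held 27, 29, 113 and 8, a span of 14.1 times.

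**Figure D3:**
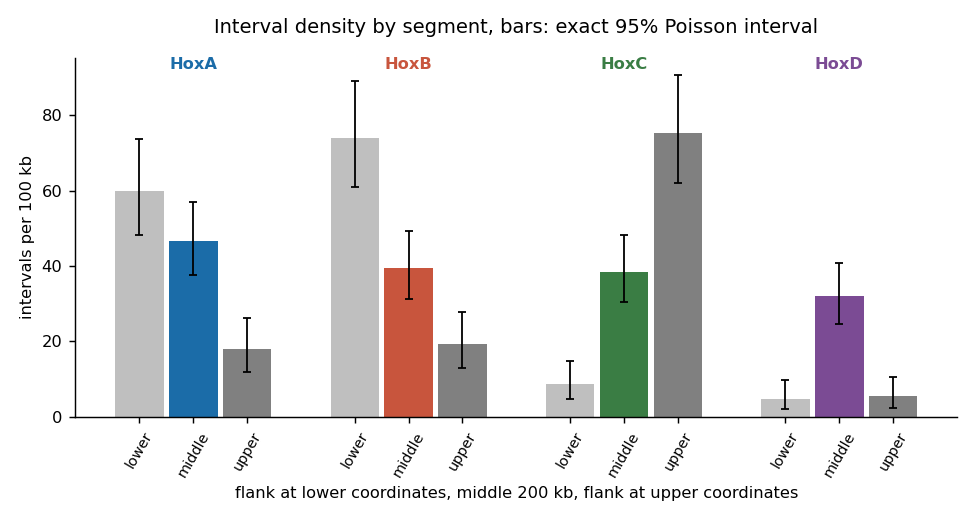
Intervals per 100 kb in the lower flank, the middle 200 kb and the upper flank of each Hox window, with exact 95% Poisson intervals as error bars (counting error only). The middle bars lie between 32.0 and 46.5 in all 4 windows, while the flanks reach 74.0 in HoxB (lower) and 75.3 in HoxC (upper) and stay at 4.67 and 5.33 in HoxD.

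Set against the same parts of the other windows, the middle 200 kb of each Hox window was above the median in number. The Hox windows were placed around gene clusters, whereas the other windows began at fixed steps, so their middles were not chosen alike. The median middle part of the 4797 other windows held 13 intervals. It was exceeded 7.15 times by HoxA, 6.08 times by HoxB, 5.92 times by HoxC and 4.92 times by HoxD, and 93.8%, 90.9%, 90.4% and 86.8% of the other windows had fewer intervals there. The flanks of HoxD, with 7 and 8 intervals, were just under the median flank of 9. The gap in number between HoxD and each of the other 3 windows thus lay mainly in the flanks. At the other extreme, the lower flank of HoxB held more intervals than 97.7% of other windows and the upper flank of HoxC more than 98.2%.

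By number of intervals, HoxD was the window in which the middle dominated. Its density of intervals in the middle was 6.40 times that in the flanks, and 96.6% of the 4739 other windows with any interval had a lower ratio. The ratio was 1.19 in HoxA, 0.85 in HoxB and 0.92 in HoxC, around the median of 0.88 in the other windows, of which 43.9% were denser in the middle. The HoxD flanks held only 15 intervals, so the size of its ratio was loosely fixed. It was 2.78 in covered bases, 3.37 among intervals at or above the median score and 1.69 among intervals of at least 200 bp. In that last class HoxA had nearly the same ratio, 1.67, so the excess was not particular to HoxD there. The ratio of HoxB turned to 1.2 among intervals of at least 200 bp, and that of HoxC fell to 0.404. The middle of HoxB thus had neither a clear excess nor a clear deficit.

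**Figure D4:**
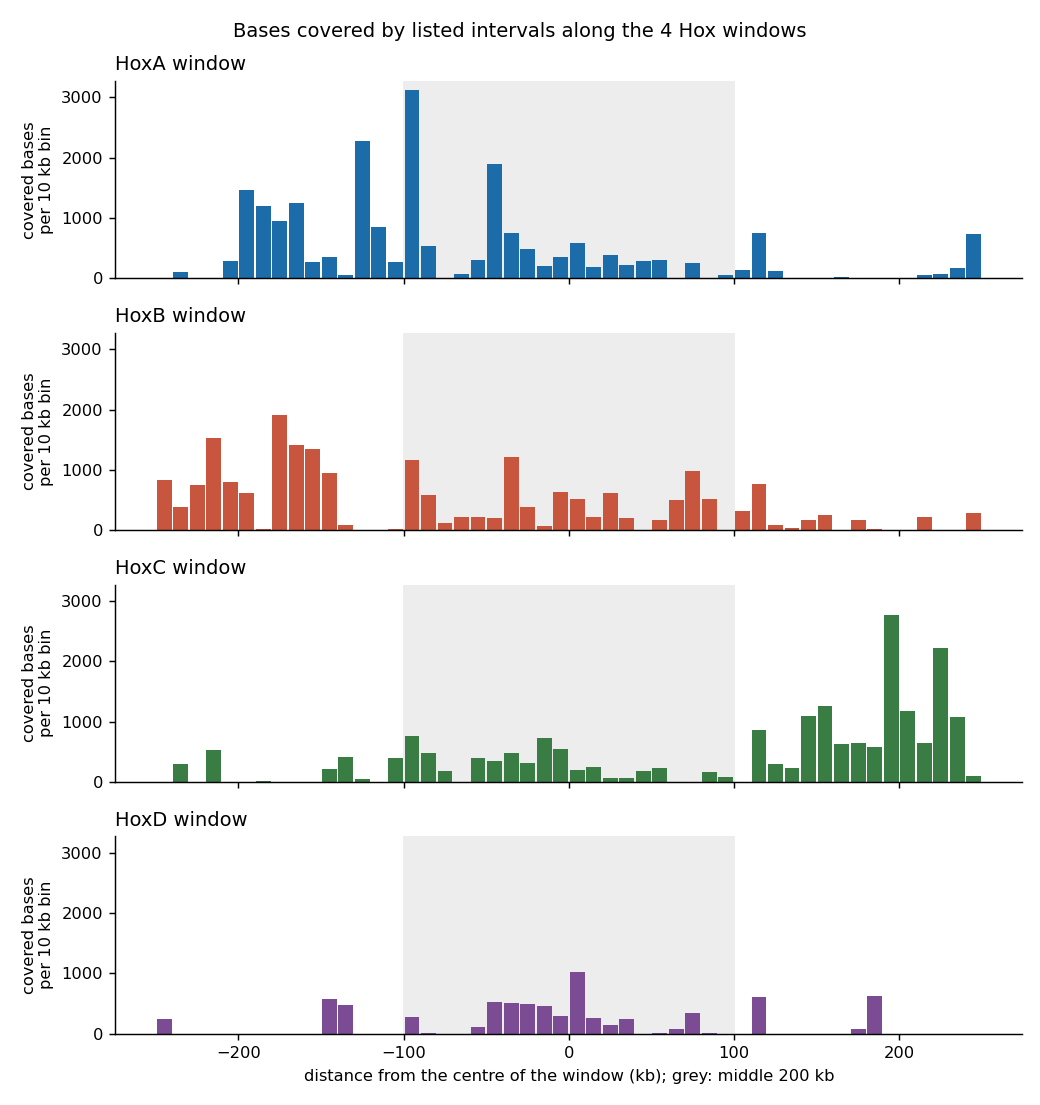
Bases covered by intervals in each 10 kb bin, by distance in kb from the centre of the window, with the middle 200 kb in grey. By chromosome coordinate, HoxA and HoxB are filled on the lower side, HoxC mainly in the upper flank and HoxD mainly within the middle. In the middle of HoxD 3 of 20 bins are without an interval, against 23 of 30 in its flanks. The genes of HoxA run in the opposite direction to those of HoxB and HoxC.

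Within the middle parts most bins had some coverage, with a few much fuller than the rest. The median bin of 10 kb had 300 covered bases in HoxA, 302 in HoxB, 217 in HoxC and 199 in HoxD, and only 2, 2, 3 and 3 of 20 bins were without an interval. The fullest bin of the middle had 1221 covered bases in HoxB, 762 in HoxC and 1019 in HoxD, against 3115 in HoxA. Top 10% intervals in the middle numbered 10 of the 17 in HoxA, 10 of the 23 in HoxB, 4 of the 18 in HoxC and 5 of the 6 in HoxD. The middle held 44.3%, 36.1%, 37.9% and 81.0% of all intervals of these windows, so in HoxD its strong intervals were there in about the same share as all its intervals.

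HoxA had its strongest and widest intervals on the lower side, the Skap2 side in the RefSeq order. The highest score, 0.0543, belonged to an interval of 522 bp at 52056190 to 52056711, and 0.437% of autosomal intervals scored at least as high. The next were 999 bp at 52028480 to 52029478 (score 0.0477), 483 bp at 51981177 to 51981659 (0.0469) and 771 bp at 51962422 to 51963192 (0.0387). The first of these 3 was also the widest of the window. Only the fifth, 398 bp at 52154367 to 52154764 (0.0379), lay near the centre. Beside the strongest lay an interval of 718 bp at 52055023 to 52055740 (0.0350), which ranked after these in width.

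A compact domain surrounded that strongest HoxA interval. When intervals within 500 bp were joined, it became a region of 4758 bp at 52052739 to 52057496 that held 20 intervals and was 65.2% covered. Of the 158631 joined autosomal regions, 0.189% were as long and 0.110% held as many intervals. Its 10 kb bin, 52050001 to 52060000, was the fullest of the 4 windows with 31.1% of bases covered. It was followed within HoxA by 52020001 to 52030000 (22.8%) and 52100001 to 52110000 (18.9%). The upper side was sparse, and the longest stretch of HoxA without an interval, 47012 bp, lay there at 52318725 to 52365736.

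HoxB held the strongest interval of the 4 windows, in its lower flank. It spanned 1339 bp at 95936793 to 95938131 with a score of 0.0829, and 0.103% of autosomal intervals scored at least as high. The interval at 95942267 to 95942724, 458 bp wide and a few kilobases away, followed with 0.0758. They lay 213 and 208 kb from the centre of the window, on the side where RefSeq lists Ttll6 and Calcoco2. Also in that flank were those at 95988278 to 95988656 (0.0439) and 95973139 to 95973508 (0.0351). The fourth, 290 bp at 96397539 to 96397828 (0.0358), lay at the upper edge. None of the 5 was in the middle, whose highest score was 0.0326.

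In HoxB, intervals of at least 200 bp and top 10% intervals were spread in similar proportions. The lower flank, middle and upper flank held 20, 20 and 5 of the former and 11, 10 and 2 of the latter. Only the few widest intervals named here were less one-sided than the highest-scoring ones named above. The widest after the strongest, 621 bp at 96225065 to 96225685 (score 0.0273) and 508 bp at 96051460 to 96051967 (0.0321), were in the middle. So was the longest joined region, 1646 bp at 96054049 to 96055694 with 7 intervals. The fullest bins were 95970001 to 95980000 (19.1% covered), 95930001 to 95940000 (15.3%) and 95980001 to 95990000 (14.2%), all in the lower flank. HoxB had the shortest of the longest empty stretches, 30639 bp at 96336326 to 96366964, on the Hoxb1 and Skap1 side.

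In chromosome coordinates HoxC was the mirror case of HoxA and HoxB, with its strength in the upper flank. That is the Smug1 and Cbx5 side in the RefSeq order. By gene order it is the Hoxc4 end, and the strong lower side of HoxA likewise lies away from Hoxa13. The strong lower flank of HoxB lies at the Hoxb13 end. The highest score, 0.0679, belonged to 1325 bp at 103070186 to 103071510, and the fourth, 0.0479, to its direct neighbour of 536 bp at 103069646 to 103070181. The second was 743 bp at 102993325 to 102994067 (0.0556), also in the upper flank. The third, 433 bp at 102751029 to 102751461 (0.0538), lay just inside the lower edge of the middle. The fifth, 291 bp at 102796901 to 102797191, scored 0.0360. An interval of 983 bp at 103045326 to 103046308 (0.0346) was the second widest, and it formed the core of the longest joined region, 2910 bp at 103044032 to 103046941.

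The upper flank alone carried 64.7% of the covered bases of HoxC. Its bins 103040001 to 103050000 and 103070001 to 103080000 were 27.7% and 22.1% covered, and 103000001 to 103010000 was 12.6% covered. The middle of HoxC had 26.2% of the covered bases and 7 intervals of at least 200 bp, fewer than the 20 in HoxA, 20 in HoxB and 9 in HoxD. On the lower side, a stretch of 37609 bp without an interval ran from 102665613 to 102703221.

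**Figure D5:**
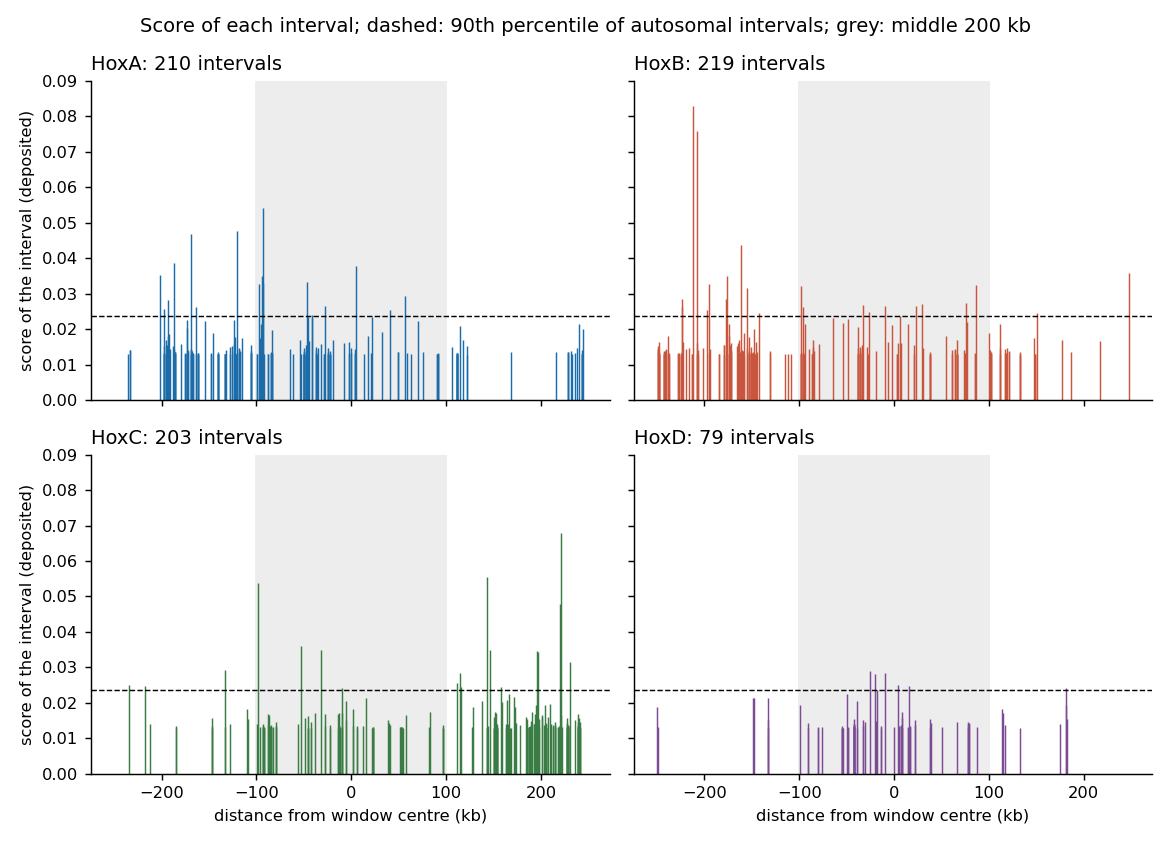
Score of each interval, in the authors' units, by distance in kb from the centre of the window; each vertical line is 1 interval, the dashed line is the 90th percentile of autosomal scores (0.0236) and the middle 200 kb is grey. The tallest lines stand in the lower flank of HoxB (0.0829 and 0.0758) and the upper flank of HoxC (0.0679), and the tallest HoxD line is 0.0289.

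HoxD lacked the higher top scores of the other windows, although its median score, 0.0136, was close to that of the autosomal intervals. Its 5 highest were 266 bp at 74524444 to 74524709 (score 0.0289), 241 bp at 74540316 to 74540556 (0.0283), 256 bp at 74529766 to 74530021 (0.0281), 476 bp at 74553841 to 74554316 (0.0249) and 221 bp at 74565155 to 74565375 (0.0247). They all lay within 40.9 kb of each other around the centre of the window. The strongest of them was matched or exceeded by 5.77% of autosomal intervals, against 0.437% for the strongest in HoxA. The central 100 kb held 45 of the 79 intervals, a number close to the 47, 36 and 40 in the central 100 kb of HoxA, HoxB and HoxC. The 476 bp interval was the widest, followed by 313 bp at 74401855 to 74402167 (0.0214) and 295 bp at 74730998 to 74731292 (0.0243), 1 in each flank.

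The few intervals of the HoxD flanks had a larger median width than those of its middle. The median width was 213 bp among the 15 flank intervals and 25.5 bp among the 64 of the middle, and 8 of the 15 were at least 200 bp wide. In the lower flank, 101027 bp from 74300537 to 74401563 were without an interval, the longest such stretch of the 4 windows. Measured between midpoints or window edges, 53.8% of the other windows had a longer one. The longest joined region, 1098 bp at 74730998 to 74732095 with 3 intervals, was in the upper flank. The fullest bins were 74550001 to 74560000 (10.2% covered), in the middle, and 74730001 to 74740000 (6.19%) and 74660001 to 74670000 (6.05%), in the upper flank.

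A single member crossed a window edge, an interval of 223 bp at the lower edge of HoxD. The first intervals inside the 8 window edges had scores of 0.0129 to 0.0358 and lay 0.0795 to 68.0 kb from the edge. The first outside scored 0.0129 to 0.0755 at 2.13 to 26.8 kb. The highest of these, 613 bp wide, lay 3.12 kb beyond the upper edge of HoxC, outside the window but scoring above every HoxC member.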

How the data were processed

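Reads were aligned with Bowtie to mouse build mm9, per the submitters' processing notes. The deposited list is named for F-Seq, which lists stretches where smoothed read density passes a threshold. The sources used here do not give its settings or the samples that entered it. The score of each interval is the authors' deposited value, on an unstated scale. Starts were counted from 1. Members, lists and comparisons were chosen with earlier results of these data known, and the comparisons with neighbouring windows, with the same parts of other windows and of the central 100 kb were chosen after values were seen.

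Intervals were assigned by midpoint, and covered bases were clipped to windows. Other windows were whole 500 kb tiles of the 19 autosomes, counted from position 0, between the first and last interval of a chromosome and without those touching a Hox window. Regions named were, per window, the 5 highest-scoring and 3 widest intervals, the longest region after joining within 500 bp, the 3 fullest 10 kb bins and the longest empty stretch. Intervals of 95% are exact and cover counting error only. Neighbouring intervals are not independent. Values were computed with pandas 2.3.3 and scipy 1.17.1 under Python 3.11.15 and numpy 2.4.6. Window counts and, loosely, the ratio of middle to flank density were tested on simulated intervals placed uniformly. Joining was tested on a small made-up set, and the other measures were not tested in this way. Alternatives were score and width filters, joining, a grid shifted by 250 kb, other sets of windows and other widths of the middle. The promoter analysis planned for an mm9 annotation was not run.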

Additional observations from a re-analysis of the deposited data

How the results depend on the processing

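Of 88 alternative values for 16 results, 69 stayed within 1.5 times of the reported value, or within its binomial interval for a share, and on the same side of 1. The windows of the same chromosome alone gave 3.0 times (intervals) and 2.85 times (covered bases) the median for HoxB, against 5.47 and 5.06, and 8.64 and 7.72 times for HoxC, against 5.08 and 4.93. Among top 10% intervals, covered bases in HoxD were 1.14 times the median, against 1.75. The ratio of middle to flank density moved most. For HoxA, at 1.19, it was 2.14 among top 10% intervals and 1.67 among those of at least 200 bp. For HoxB, at 0.846, it passed 1 among top 10% intervals (1.15), intervals of at least 200 bp (1.2) and joined regions (1.05). For HoxC, at 0.917, it was 0.429 among top 10% intervals, 0.404 among those of at least 200 bp, 0.532 in covered bases and 0.598 with a middle of 300 kb. For HoxD, at 6.40, it was 3.37 for the upper 50% of scores, 1.69 among intervals of at least 200 bp and 2.78 in covered bases, and it stayed above 1 under each of the 7 alternatives run. The share in the top 10% was 6.67% in HoxB among intervals of at least 200 bp, 3 of 45, and 0% in HoxD both there (0 of 17) and among joined regions (0 of 42, with an exact upper limit of 8.41%, under 10%). The cause of these shifts was not tested. The unknown read depth limits what an absent interval can show, and no replicate could be left out.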

Other observations

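Fragmentation was similar in the 4 windows by the share of short gaps, and less so by the number of intervals per joined region. Gaps of at most 20 bp separated 37.3% of neighbouring intervals in HoxA, 35.3% in HoxB, 36.6% in HoxC and 33.3% in HoxD, against 34.1% over the autosomes. Joining within 500 bp left 83, 97, 91 and 42 regions, in the same order, of which 45.8%, 50.5%, 46.2% and 50% held 1 interval, against 51.3% of all joined autosomal regions. A joined region held on average 2.53 intervals in HoxA, 2.26 in HoxB, 2.23 in HoxC and 1.88 in HoxD, against 2.17 over the autosomes. Joined regions in HoxB and HoxC lay a median of 2810 and 2933 bp apart, those in HoxA 3434 bp and those in HoxD 4836 bp. After the region of 20 intervals in HoxA, the joined regions with the most intervals held 8 in HoxB, 9 in HoxC and 8 in HoxD.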
